A study of Mus musculus and Rattus norvegicus with 37 samples.

Results

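The livers of LNA29-treated and saline-treated mice were compared for the 7 genes that write, oxidize and remove DNA methylation, several of which are known miR-29 targets, namely Dnmt1, Dnmt3a, Dnmt3b, Tet1, Tet2, Tet3 and Tdg. They were chosen by gene name with earlier results of these data known, so shares of the 7 set beside all genes are descriptions. All 7 were found once among the 47929 uniquely named mouse genes and once among the 28026 uniquely named rat genes. The series holds poly(A)-selected RNA-seq of 37 livers, 21 from mice and 16 from rats. All mice were females on a C57BL/6J background fed chow, and all received 1 subcutaneous injection 7 days before the liver was taken in the fed state. LNA29 is a pair of locked nucleic acid oligonucleotides, 1 against miR-29a-3p and 1 against miR-29b-3p and miR-29c-3p, given at 20 mg/kg each, and the controls received saline. A control oligonucleotide was not part of the comparison, so that effects of miR-29 inhibition and of oligonucleotide delivery cannot be told apart. The WT/Floxed LNA29 group (n = 8) joined 4 WT mice of 9 to 11 weeks with 4 floxed littermates of the knockout line of 15 to 20 weeks. The WT/Floxed saline group (n = 5) joined 3 WT and 2 floxed mice, after the study had set aside 1 floxed mouse. The L-Sirt1 KO LNA29 (n = 4) and L-Sirt1 KO saline (n = 4) groups were mice of 15 to 20 weeks with a liver-specific knockout of Sirt1, whose Cre driver is not given in the sources used here. The rats were male Zucker rats on chow, with 5.5-month-old ZFR (Zucker fatty rats, fa/fa, with a mutated leptin receptor, n = 4) set against ZLR (Zucker lean rats, n = 4). Also, 3-month-old ZFR received daily intraperitoneal BT2 (n = 4), an inhibitor of the kinase that restrains branched-chain α-keto acid dehydrogenase, at 20 mg/kg in dimethylsulfoxide for 7 days, or vehicle alone (n = 4).

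Every value is a normalized count, the number of reads assigned to a gene divided by a size factor of its library. Depth was estimated at 42.6 M to 78.0 M reads per mouse library, where 1 read was worth at most 1.37 normalized counts, and at 0.188 M to 58.5 M reads per rat library, where 1 read was worth up to 10.5. Of the 16 rat libraries, 12 lay under 5 M reads, so the mouse values carry far less counting error. Sirt1 had 562 ± 25.97 normalized counts in L-Sirt1 KO LNA29 livers, 586 ± 30.6 in L-Sirt1 KO saline livers and, in a table normalized separately, 591 ± 81.2 in WT/Floxed saline livers (SD). Levels cannot be compared strictly across these tables, and a count over the whole gene cannot see the loss of only a part of it, so these values do not check the knockout label. Hepatocyte, stellate cell, macrophage, endothelial, cholangiocyte, lymphocyte and red blood cell markers were all detected, as bulk liver holds these cells. In such samples, fewer cells of a type and less RNA per cell cannot be told apart.

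DNA methylation in mammals is written by the Dnmt proteins on cytosine beside guanine. Dnmt3a and Dnmt3b place new marks, whereas Dnmt1 copies existing ones onto the new strand after replication. Tet1, Tet2 and Tet3 oxidize 5-methylcytosine stepwise with 2-oxoglutarate as a co-substrate, and the glycosylase Tdg excises the most oxidized forms, after which base excision repair restores an unmodified cytosine. MicroRNAs such as miR-29 pair through their seed, bases 2 to 8 of the mature strand, with complementary stretches that lie mostly in 3′ UTRs, and lower the stability and translation of the bound mRNA.

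The 3 mature miR-29 strands blocked by LNA29 share 1 seed, which is why a single site sequence serves for the whole family. They are shown 5′ to 3′ as RefSeq gives them for GRCm38, with the seed in capitals.
mmu-miR-29a-3p: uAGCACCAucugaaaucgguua
mmu-miR-29b-3p: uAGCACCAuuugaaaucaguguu
mmu-miR-29c-3p: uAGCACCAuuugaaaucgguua
The stretch that pairs with this seed reads TGGTGCT on the sense strand of an mRNA, and an 8-base match adds an A after it. The annotation is GENCODE M21 on GRCm38, the assembly also called mm10 that the authors aligned to. In the longest annotated 3′ UTR of each gene, 6 of the 7 genes held at least 1 such match and 5 held at least 1 of 8 bases. Among the 13529 genes tested in WT/Floxed mice with an annotated 3′ UTR, 15.4% held a 7-base match and 3.32% an 8-base match. Only 0.495% of them held 3 or more 7-base matches, against 5 of these 7 genes. Part of this count goes with length, since the median 3′ UTR was 1146 bases over the genes tested and 3058 bases over the 7.

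Tet3 held 8 matches within 5669 bases, Tet1 held 7 within 7962 bases, Dnmt3a 5 within 6696 bases, Tet2 5 within 3058 bases, Tdg 3 within 2079 bases and Dnmt3b 1 within 1331 bases. Dnmt1, with a 3′ UTR of only 312 bases, held 0 matches, which says only that these letters are not in that window. All protein-coding transcripts with a complete end were also searched in place of the longest 3′ UTR. This left 6 genes with a match and added 1 match to Dnmt3a. The matches are drawn to scale in the map of 3′ UTRs by distance from the stop codon.

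**Figure D1:**
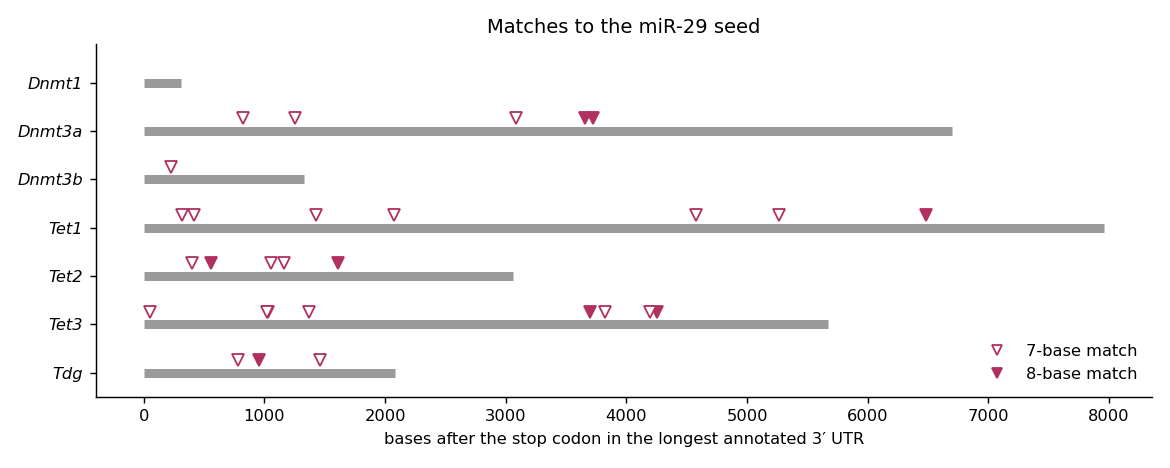
Matches to the miR-29 seed in the longest annotated 3′ UTR of each gene (grey bar). The x axis is the distance from the stop codon in bases, open triangles are 7-base and filled triangles 8-base matches. Tet3 carries 8 matches and Dnmt1 carries 0.

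The following windows show where the miR-29 seed can pair in 5 of these mRNAs, 4 of which rose in at least 1 genotype. Each gives the match in capitals with the bases around it, 5′ to 3′ on the sense strand. They are the single match of Dnmt3b, the 3 of Tdg, and the 8-base matches of Dnmt3a, Tet3 and Tet2. All lie in 3′ UTR exons of GRCm38.
Dnmt3b (chr2:153686613-153686634, plus strand, 228 bases after the stop codon): agagtagcccggcaTGGTGCTc
Tdg (chr10:82649491-82649512, plus strand, 785 bases after the stop codon): aatcctgtttaaacTGGTGCTg
Tdg (chr10:82649663-82649684, plus strand, 957 bases after the stop codon): tcatgcattttccaTGGTGCTa
Tdg (chr10:82650170-82650191, plus strand, 1464 bases after the stop codon): ccctctgtacttccTGGTGCTt
Dnmt3a (chr12:3911391-3911412, plus strand, 3658 bases after the stop codon): ccaggggaggtagcTGGTGCTa
Dnmt3a (chr12:3911460-3911481, plus strand, 3727 bases after the stop codon): gcggggtcccaagcTGGTGCTa
Tet3 (chr6:83363777-83363798, minus strand, 4258 bases after the stop codon): aggccgcttttagtTGGTGCTa
Tet3 (chr6:83364336-83364357, minus strand, 3699 bases after the stop codon): aatagtctaataaaTGGTGCTa
Tet2 (chr3:133465116-133465137, minus strand, 1614 bases after the stop codon): aattcacatcacgaTGGTGCTa
Tet2 (chr3:133466173-133466194, minus strand, 557 bases after the stop codon): gtgttaacattaaaTGGTGCTa
The Dnmt3b match was found in 10 transcripts, where 12 are annotated, and the Tet3 matches in 1, where 5 are annotated. Only protein-coding transcripts with a complete end were searched, so these counts do not show that the remaining transcripts lack the matches.

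In WT/Floxed mice, which genes of methylation turnover responded to LNA29 was tested with limma on log2(normalized count + 1). A gene counted as changed when p was under 0.05, the Benjamini-Hochberg adjusted p under 0.2, the mean above 50 normalized counts and the fold change above 1.2, the criteria of the study. Dnmt3b, Tet3 and Tdg rose, that is 3 of 7, while 4.35% of the 15811 genes tested passed (2.42% upwards and 1.93% downwards). Every treated liver lay above every control for these 3, as was true of 0.942% of all genes tested. An unadjusted p under 0.05 was reached by 4 of 7 and by 13.3% of all genes tested. The log2 fold change was positive for 7 of 7, against 50.5% of all genes tested, with a median of 0.68 beside a median of 0.0017 over all genes tested.

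Dnmt3b, a de novo methyltransferase known for low expression in adult tissue, had 114, 378, 362, 199 and 235 normalized counts in the 5 saline livers, and 435 at the lowest, 524 at the median and 774 at the highest among the 8 LNA29 livers. Every treated liver was above every control, although the controls spread widely. The mean went from 257 ± 112 to 555 ± 119 (SD), a log2 fold change of 1.21 with an SE of 0.25 (adjusted p = 0.0277, limma), or 2.31-fold. The exact permutation test over the 13 livers gave p = 0.000777, the smallest value this design allows.

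Tdg, the glycosylase, had the smallest adjusted p of the 7. It had 1047, 888, 1116, 1093 and 889 normalized counts in the saline livers and 1507 at the lowest, 1676 at the median and 2229 at the highest with LNA29. The groups were far apart, with means of 1006 ± 110 and 1732 ± 243 (SD), a log2 fold change of 0.78 with an SE of 0.10 (adjusted p = 0.00143, limma), which ranked 19th by p among all genes tested. Tdg shares 367 exonic bases with Glt8d2 on the opposite strand, and without strand the reads of both cannot be told apart there, but Glt8d2 had at most 16.5 normalized counts in any mouse. The pseudogene Tdg-ps had at most 2.89.

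Tet3, the dioxygenase known to act on the paternal genome of the zygote, had 766, 803, 912, 586 and 641 normalized counts with saline and 953 at the lowest, 1180 at the median and 1384 at the highest with LNA29. Here too the lowest treated liver was above the highest control. The means were 742 ± 130 and 1182 ± 156 (SD), with a log2 fold change of 0.68 with an SE of 0.12 (adjusted p = 0.0126, limma).

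The other 4 genes did not pass. Tet2, the dioxygenase with a large role in blood cells, had 414, 610, 660, 259 and 498 normalized counts with saline, against 471 at the lowest, 644 at the median and 849 at the highest with LNA29. Most treated livers (7 of 8) were above the control median, but the groups overlapped. The log2 fold change of 0.45 ± 0.20 (SE) had an adjusted p of 0.359 (limma), and the exact permutation test gave p = 0.0606. Dnmt3a had 982, 734, 1510, 1425 and 794 normalized counts with saline and 889 at the lowest, 1297 at the median and 1877 at the highest with LNA29. Its controls fell into a wide range, with WT saline livers at a mean of 1306 and floxed saline livers at a mean of 764, while LNA29 livers had means of 1356 and 1275. The pooled log2 fold change was 0.29 with a 95% interval from -0.17 to 0.75 (adjusted p = 0.636, limma). Dnmt1, the maintenance enzyme and the gene without a match, had 516, 576, 718, 583 and 546 normalized counts with saline and 483 at the lowest, 647 at the median and 811 at the highest with LNA29. These ranges lay on top of each other, with a log2 fold change of 0.11 and an interval from -0.15 to 0.38 (adjusted p = 0.765, limma). Tet1, the family member typical of embryonic and germ cells, was barely expressed, at 9.56 ± 7.33 normalized counts with saline and 17.1 ± 9.54 (SD) with LNA29, and lay under the level at which a gene could be called. Its log2 fold change was 0.81 with an interval from -0.14 to 1.77 (adjusted p = 0.475, limma).

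**Figure D2:**
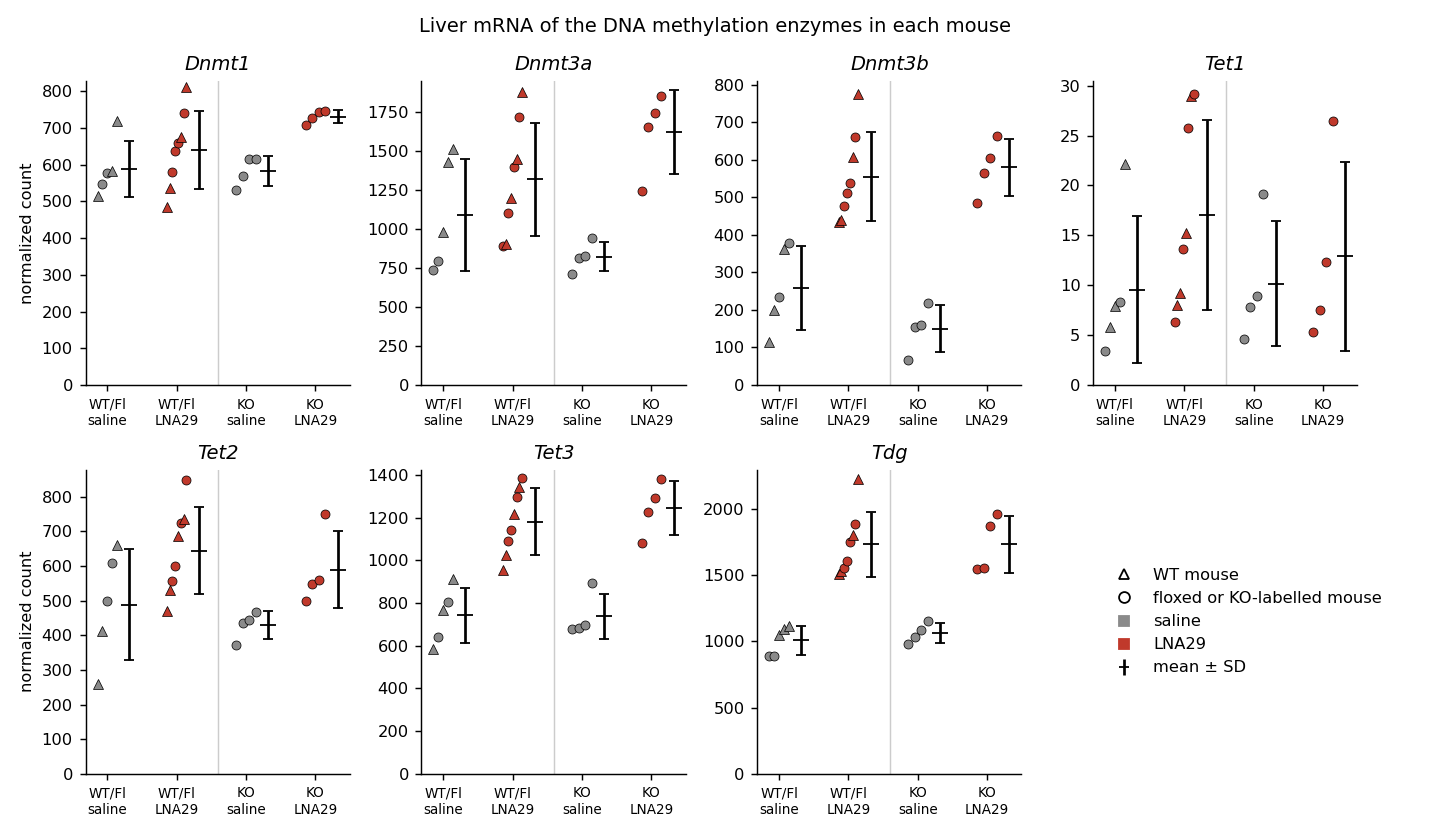
Normalized counts (y axis) of each gene in each mouse liver, by group. Triangles are WT mice, circles floxed mice or mice labelled L-Sirt1 KO, grey is saline, red is LNA29, and bars give the mean and SD. Dnmt3b, Tet3 and Tdg do not overlap between saline and LNA29 in either genotype.

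The livers came from 3 flow cells, each holding treated and control WT/Floxed libraries. Within these the log2 difference of Tdg was 0.74, 0.68 and 0.85, that of Dnmt3b 0.82, 1.11 and 1.40, and that of Tet3 0.56, 0.40 and 0.91, too few livers each for a test. With WT mice alone, Dnmt3b and Tet3 no longer passed (log2 fold changes of 1.44 and 0.60, adjusted p = 0.304 and 0.393, limma), whereas Tdg did (0.68, adjusted p = 0.192, limma). With floxed mice alone, 4 LNA29 and 2 saline livers, Dnmt3b, Tet3 and Tdg passed (0.86, 0.77 and 0.93, adjusted p = 0.147, 0.0957 and 0.0433, limma). The WT/Floxed LNA29 liver of replicate 4 had the highest Dnmt1, Dnmt3a, Dnmt3b and Tdg of its group, together with the highest summed macrophage markers (39170 normalized counts, against 7201 to 19728 in the other 7) and proliferation genes (8761, against 4344 to 6984). Without it the log2 fold changes of Dnmt3b, Tet3 and Tdg were 1.13, 0.65 and 0.72 (adjusted p = 0.0402, 0.0213 and 0.00107, limma). Between floxed and WT mice no gene of the 7 passed an adjusted p of 0.2, against 25.7% of all genes tested, and the closest was Dnmt3a with a log2 difference of -0.33 (adjusted p = 0.315, limma). Age and background cannot be told apart in that contrast.

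In the mice labelled L-Sirt1 KO, the same comparison asks whether the response was present when liver Sirt1 was targeted. Dnmt3a, Dnmt3b, Tet3 and Tdg rose, 4 of 7, where 1.87% of the 15885 genes tested passed (1.19% upwards and 0.68% downwards). Every treated liver lay above every control for 6 of 7 genes, as was true of 3.65% of all genes tested, and an unadjusted p under 0.05 was reached by the same number and by 11.2% of all genes tested. All 7 log2 fold changes were positive, against 49.5% of all genes tested, with a median of 0.70. With 4 livers against 4, the exact permutation test cannot give a p below 0.0286, and it gave this value for each of the 6.

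Dnmt3b had 219, 155, 66.9 and 160 normalized counts with saline and 605, 484, 663 and 565 with LNA29. Even the lowest treated liver was more than 2 times the highest control. The mean rose from 150 ± 62.5 to 579 ± 75.2 (SD), a log2 fold change of 2.05 with an SE of 0.31 (adjusted p = 0.0353, limma), or 4.15-fold, the largest change among the 7 genes in either genotype. It ranked 31st among all genes tested by the size of its rise.

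Dnmt3a had 812, 709, 939 and 826 normalized counts with saline and 1239, 1849, 1741 and 1653 with LNA29. Treated livers stood clear of the controls, with 1 treated liver lower than the other 3. The mean rose from 821 ± 94.2 to 1620 ± 267 (SD), a log2 fold change of 0.97 with an SE of 0.14 (adjusted p = 0.0276, limma).

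Tdg had 977, 1154, 1030 and 1086 normalized counts with saline and 1960, 1545, 1868 and 1555 with LNA29. Tet3 had 685, 677, 895 and 696 with saline and 1079, 1294, 1227 and 1381 with LNA29. Both rose without overlap, by 0.70 ± 0.11 and 0.76 ± 0.12 on the log2 scale (SE, adjusted p = 0.0365 and 0.0465, limma).

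Tet2 had 371, 467, 436 and 443 normalized counts with saline and 499, 549, 750 and 560 with LNA29. Dnmt1 had 568, 615, 531 and 614 with saline and 707, 742, 726 and 745 with LNA29. In both genes every treated liver was above every control, but neither passed, with log2 fold changes of 0.44 ± 0.14 and 0.33 ± 0.09 (SE, adjusted p = 0.277 and 0.206, limma), the second just outside the threshold. With weights for library quality both crossed it (adjusted p = 0.197 and 0.145, limma). Tet1 stayed at 4.66 to 26.5 normalized counts over all 8 livers, with overlapping groups and a log2 fold change of 0.24 (interval -0.98 to 1.47).

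**Figure D3:**
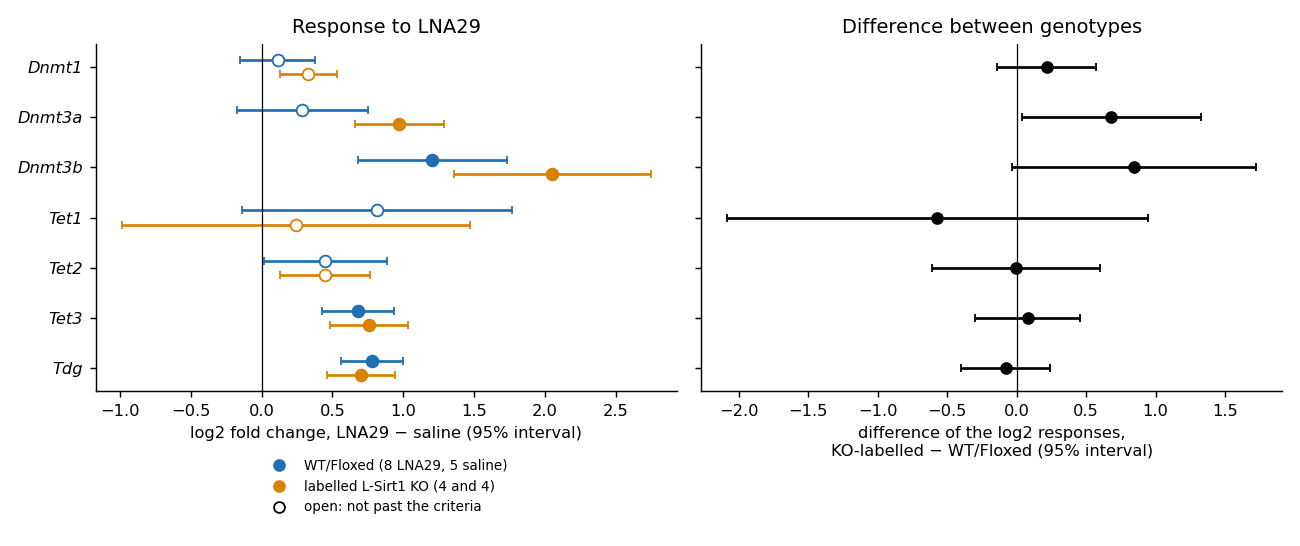
Left, log2 fold change of LNA29 against saline with its 95% interval for WT/Floxed mice (blue) and mice labelled L-Sirt1 KO (orange), filled where the criteria were passed. Right, the difference between both responses with its 95% interval. Dnmt3b responds most in both genotypes, at 1.21 and 2.05, and Tet3 and Tdg at similar size in both.

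Whether these responses differed between genotypes was tested as an interaction over all 21 mouse livers. None of the 7 passed an adjusted p of 0.2, beside 0.0449% of the 15601 genes tested. The difference (L-Sirt1 KO minus WT/Floxed, on the log2 scale) was 0.85 for Dnmt3b with an interval from -0.03 to 1.72 (adjusted p = 0.560, limma) and 0.68 for Dnmt3a with an interval from 0.04 to 1.33 (adjusted p = 0.501, limma). At an unadjusted p under 0.05, Dnmt3a alone passed, 1 of 7, beside 9.14% of all genes tested. With the floxed littermates as the only other genotype, which are of the same age range as the mice labelled L-Sirt1 KO, the difference of Dnmt3a was 0.27 (adjusted p = 0.782, limma) and that of Dnmt3b 1.19 (adjusted p = 0.364, limma). Intervals were narrower for Tdg, from -0.40 to 0.24, for Tet3, from -0.30 to 0.46, and for Dnmt1, from -0.14 to 0.57. For Tet2 the interval ran from -0.61 to 0.60 and for Tet1 from -2.08 to 0.94. Because the tables were normalized separately, only these differences, not the levels, can be set side by side across genotypes.

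Levels of different genes can be compared only per length, here as normalized counts per kilobase of annotated exon. In WT/Floxed saline livers Tdg led with 187 ± 20.6 (SD, n = 5), followed by Dnmt1 with 79.7 ± 10.5, Dnmt3a with 65.4 ± 21.6, Dnmt3b with 50.4 ± 21.9, Tet3 with 44.4 ± 7.79, Tet2 with 28.9 ± 9.48 and Tet1 with 0.618 ± 0.474. Only the first and the last of these 6 steps exceeded the spread between livers, as the ranges of the neighbours from Dnmt1 down to Tet2 overlapped. In WT/Floxed LNA29 livers Dnmt3b stood second at 109 ± 23.2 (SD, n = 8), behind Tdg at 322 ± 45.3 and with a range that overlapped that of Dnmt1 at 86.8 ± 14.5. In L-Sirt1 KO saline livers Dnmt3b stood below Tet3, at 29.4 ± 12.2 (SD, n = 4). Its range overlapped those of Tet3 at 44.2 ± 6.28 and of Tet2 at 25.5 ± 2.42. In L-Sirt1 KO LNA29 livers Dnmt3b stood next to Tdg at 113 ± 14.7, with a range that overlapped that of Dnmt1 at 99.0 ± 2.38.

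The spread among livers was not the same for all 7 genes. Over the 21 mouse livers, each table centred on its mean, log2 values of Tet3 and Tdg correlated at r = 0.848 and those of Dnmt3b and Tdg at r = 0.806, as a description of livers that share the treatment contrast. Centred on each group, these fell to 0.191 and 0.234, whereas Dnmt1 kept r = 0.622 with Tdg, 0.595 with Dnmt3b and 0.581 with Tet3. This was not particular to Dnmt1, as Dnmt3a kept r = 0.599 with Tdg and Tet2 kept 0.529 with Tet3. By the same measure, the genes most like each member over the table-centred livers were Dsc2 (0.936), Ints14 (0.932) and Chfr (0.930) for Tdg, Pan2 (0.939), Dsc2 (0.909) and Zbtb34 (0.897) for Tet3, and Cldn1 (0.889), Kdelc1 (0.885) and Ypel2 (0.871) for Dnmt3b. For Dnmt3a they were Cd93 (0.900), Bnip2 (0.862) and Iqgap3 (0.834), for Dnmt1 1700010I14Rik (0.875), Myh9 (0.867) and Kif20a (0.857), for Tet2 Kdm6b (0.867), Med12l (0.788) and Kmt5c (0.753), and for Tet1 Dph5 (0.797), Sart3 (0.741) and Tas1r3 (0.722). Of these, Pan2, Zbtb34, Cldn1, Kdelc1, Ypel2, Cd93, Kdm6b, Med12l, Kmt5c and Chfr held a 7-base match in their 3′ UTR, 10 of 20 genes, beside the 15.4% given above for all genes with a 3′ UTR. This likeness includes the treatment contrast. Within groups the closest genes were largely others, namely Usp12 (0.925), Btaf1 (0.902) and Sdad1 (0.901) for Tdg, Baz2a (0.820), Fnbp4 (0.804) and Plec (0.773) for Tet3, and Loxl4 (0.920), Mzb1 (0.904) and Npas2 (0.892) for Dnmt3b. For Dnmt3a they were Tbc1d1 (0.870), Cd93 (0.862) and Cd33 (0.854), for Dnmt1 Swap70 (0.875), Slc41a1 (0.865) and Myh9 (0.846), for Tet2 Esrp2 (0.796), Kdm6b (0.793) and 9030622O22Rik (0.746), and for Tet1 Dph5 (0.805), Tas1r3 (0.796) and Ddx20 (0.760). Of these within-group genes, 5 of the 20 with an annotated 3′ UTR held a match, namely Swap70, Cd93, Loxl4, Kdm6b and Sdad1.

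Genes that work with the 7 enzymes were read from the same fits, without a test of the lists against the 7. Of 9 partners of the methyltransferases, 8 could be tested in WT/Floxed mice and 0 passed (1 at an unadjusted p under 0.05), with a median log2 fold change of 0.07, and the largest difference was that of Hells, a chromatin remodeller needed for methylation of repeats, at 0.68 (adjusted p = 0.816, limma). In the mice labelled L-Sirt1 KO 1 of 8 rose, beside 1.19% of all genes tested, and 3 reached an unadjusted p under 0.05, beside 11.2%. The gene that rose was Uhrf1, the protein that guides Dnmt1 to half-methylated DNA. Uhrf1 had 45.5, 33.999, 36.1 and 39.5 normalized counts with saline and 88.2, 128, 57.8 and 116 with LNA29, with a log2 fold change of 1.25 with an SE of 0.26 (adjusted p = 0.102, limma). Hells had the largest difference of the list there too, from 44.3 ± 50.01 to 216 ± 191 normalized counts (SD), at 2.33 ± 0.83 (SE, adjusted p = 0.329, limma), a larger value than that of Dnmt3b but with a wide spread. For Uhrf1 in WT/Floxed livers the log2 fold change was 0.26 (adjusted p = 0.837, limma), and replicate 4 was highest at 146. Dnmt3l, the catalytically inactive partner of the de novo enzymes, had at most 1.07 normalized counts in any liver. Of 10 readers of methylated DNA, 0 passed in either genotype (1 at an unadjusted p under 0.05 in each), with medians of -0.01 and -0.11. The largest differences were those of Mbd4, a glycosylase with a methyl-CpG binding domain, at -0.40 (adjusted p = 0.449, limma) in WT/Floxed mice and of Mbd1 at -0.31 (adjusted p = 0.370, limma) in the other genotype.

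For 14 genes of base excision repair and demethylation after Tdg, the medians were 0.13 in WT/Floxed mice and 0.11 in the mice labelled L-Sirt1 KO. An unadjusted p under 0.05 was reached by 4 and 3 of the 14, beside 13.3% and 11.2% of all genes tested. In the mice labelled L-Sirt1 KO 0 of the 14 rose, beside 1.19% of all genes tested. In WT/Floxed mice 2 of the 14 rose, beside 2.42% of all genes tested. The first was Ung, a glycosylase that removes uracil, with 119 to 271 normalized counts with saline and 235 to 441 with LNA29, overlapping ranges and a log2 fold change of 1.02 with an SE of 0.21 (adjusted p = 0.0309, limma). Its 3′ UTR held 1 match to the miR-29 seed. The second was Gadd45b, a stress-induced gene, from a mean of 189 ± 90.5 to 542 ± 328 (SD), a log2 fold change of 1.37 with an SE of 0.41 (adjusted p = 0.137, limma). For the mice labelled L-Sirt1 KO, the largest difference was that of the glycosylase Neil3, at 1.497 ± 0.31 (SE, adjusted p = 0.102, limma), from 6.26 ± 1.61 to 19.3 ± 3.18 normalized counts (SD), under the mean of 50 that a call needed. Ung was at 0.60 there (adjusted p = 0.302, limma).

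Of 8 genes around TET function and the supply of 2-oxoglutarate, only Idh1, which makes 2-oxoglutarate in the cytosol, changed in WT/Floxed mice, from 27965 ± 2177 to 22286 ± 2662 normalized counts (SD). It fell by 0.33 on the log2 scale (adjusted p = 0.0861, limma), 1 of 8, beside 1.93% of all genes tested that fell. An unadjusted p under 0.05 was reached by 2 of 8, beside 13.3% of all genes tested. Of the same 8 genes, 0 passed in the mice labelled L-Sirt1 KO (0 also at an unadjusted p under 0.05), and the largest difference was that of Cxxc4 at -0.46 (adjusted p = 0.641, limma). Of 22 genes of the methyl donor cycle, 2 fell in WT/Floxed mice, beside 1.93% of all genes tested. An unadjusted p under 0.05 was reached by 11 of 22, beside 13.3% of all genes tested. Gnmt, a major consumer of S-adenosylmethionine in liver, fell by 0.39 (adjusted p = 0.159, limma), and the mitochondrial serine hydroxymethyltransferase Shmt2 fell by 0.28 (adjusted p = 0.185, limma). The median over the 22 was -0.22, with 5 of 22 above 0, beside 50.5% of all genes tested. Among mice labelled L-Sirt1 KO only Mat2a, an S-adenosylmethionine synthetase, changed. It fell by 0.40 (adjusted p = 0.139, limma), 1 of 22, beside 0.68% of all genes tested that fell. The median over the 22 was 0.02 with 13 above 0. An unadjusted p under 0.05 was reached there by 1 of 22, beside 11.2% of all genes tested.

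Proliferation genes rose in part in the mice labelled L-Sirt1 KO. There 5 of 15 rose, Top2a and the replication helicase subunits Mcm3, Mcm4, Mcm5 and Mcm6, beside 1.19% of all genes tested. All 15 log2 fold changes were above 0, against 49.5% of all genes tested, with a median of 0.68. An unadjusted p under 0.05 was reached by 11 of 15, beside 11.2% of all genes tested. The summed counts of the 15 were 4566 to 4910 with saline and 5784 to 7653 with LNA29. These sums separated the groups, as the counts of 6 of the 7 enzymes did. In WT/Floxed mice 0 of 15 passed (2 at an unadjusted p under 0.05), although 14 of 15 were above 0, against 50.5% of all genes tested. The median there was 0.29, and the sums were 4546 to 5183 with saline and 4344 to 8761 with LNA29. The largest difference there was that of Ccnb1 at 0.76 (adjusted p = 0.518, limma). Macrophage markers went the other way, with a median of -0.50 in WT/Floxed mice, where 0 of 7 passed (0 also at an unadjusted p under 0.05). In the mice labelled L-Sirt1 KO their median was -0.39, and Clec4f and Vsig4 fell, 2 of 7, beside 0.68% of all genes tested. An unadjusted p under 0.05 was reached there by 5 of 7, beside 11.2% of all genes tested. Summed macrophage markers were 13228 to 23140 with saline and 7201 to 39170 with LNA29 in WT/Floxed mice, and 15913 to 19145 with saline and 12788 to 15986 with LNA29 in the other genotype. Of the other markers, 1 of 6 hepatocyte genes rose in WT/Floxed mice, beside 2.42% of all genes tested. For sinusoidal endothelium 1 of 6 fell in each genotype, beside 1.93% and 0.68%. No cholangiocyte marker passed, with medians of 0.30 in WT/Floxed mice (5 of 5 above 0) and -0.08 in the other genotype (2 of 5). The part of proliferating cells, macrophages and other cell types in the changes of the 7 genes was not tested.

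Matrix genes known as miR-29 targets served for scale, and were chosen with their response known. Of 12, 11 rose in WT/Floxed mice and 12 in the mice labelled L-Sirt1 KO, beside 2.42% and 1.19% of all genes tested. Their medians were 0.78 and 0.89, and 9 of 12 held a 7-base match. Those that rose in both genotypes were Col1a1, Col1a2, Col3a1, Col4a2, Col5a1, Eln, Fbn1, Sparc, Lamc1, Nid1 and Loxl2, and Col4a1 passed only the comparison in mice labelled L-Sirt1 KO, with no test of the difference. Eln rose by 1.85 and 1.73 on the log2 scale and Col3a1 by 1.19 and 1.74. Dnmt3b, at 1.21 and 2.05, rose by more than the median of the matrix genes in both genotypes. It lay below Eln in WT/Floxed mice and above both Eln and Col3a1 in the mice labelled L-Sirt1 KO. The rises of Tdg and Tet3 lay near the median of the matrix genes. Over all genes tested in WT/Floxed mice, 1.90% of the 11449 without a match were called higher, 5.83% of the 1751 with 1 match, 9.16% of the 262 with 2 and 17.9% of the 67 with 3 or more. In the mice labelled L-Sirt1 KO these shares were 0.782%, 3.54%, 5.36% and 14.5%. The 7 genes are among those counted, and the number of matches goes with 3′ UTR length.

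**Figure D4:**
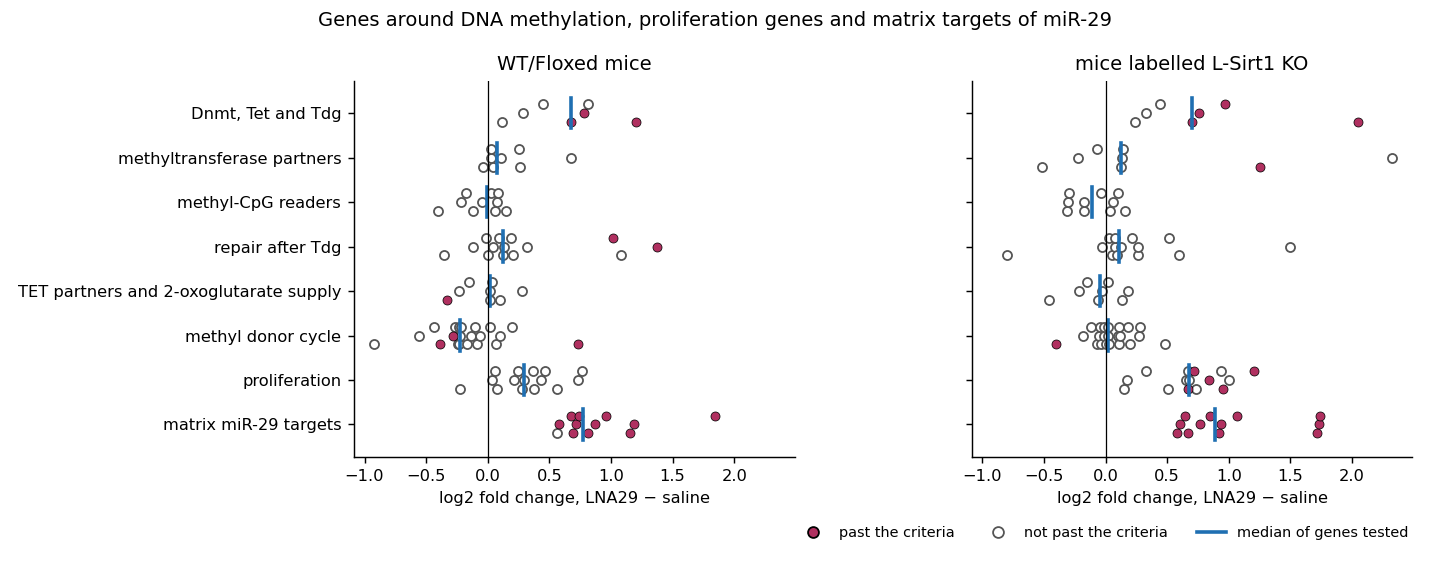
Log2 fold change of LNA29 against saline (x axis) for the genes tested of each list, in WT/Floxed mice (left) and mice labelled L-Sirt1 KO (right). Filled points passed the criteria and blue lines are medians, which lie at 0.68 and 0.70 for the 7 enzymes and between -0.11 and 0.13 for the partners, readers and repair genes. They lie at 0.02 and -0.05 for TET-related genes and at -0.22 and 0.02 for the methyl donor cycle. Proliferation genes have medians of 0.29 and 0.68, and matrix genes of 0.78 and 0.89.

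In rats the 7 genes rested on few reads. Between ZFR and ZLR, 4 of the 7 (Dnmt1, Dnmt3a, Tet2 and Tdg) reached the minimum mean of 10 normalized counts and 0 of them passed an adjusted p of 0.05 (0 also at an unadjusted p under 0.05), while 4.25% of the 8633 genes tested passed (1.8% upwards, 2.46% downwards, and 16.6% at an unadjusted p under 0.05). Tdg had 43.2, 59.5, 40.1 and 40.8 normalized counts in ZFR and 41.99, 42.4, 31.9 and 63.2 in ZLR. These ranges overlapped widely, with a log2 fold change of 0.06 and an interval from -0.49 to 0.60 (adjusted p = 0.920, limma). The deepest library, of ZFR replicate 1, gave 1344 estimated reads of Tdg, whereas ZLR replicate 3 gave 3.

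Dnmt1 had 27.9, 25.7, 19.9 and 22.2 normalized counts in ZFR and 18.0, 24.2, 36.96 and 29.8 in ZLR, and its 2 highest lean values rested on 3.5 and 2.9 estimated reads. The log2 fold change was -0.15 (adjusted p = 0.801, limma). Tet2 had 10.4, 14.1, 8.36 and 17.1 in ZFR and 10.5, 11.2, 21.1 and 20.9 in ZLR, with a log2 fold change of -0.30 (adjusted p = 0.730, limma). Dnmt3a had 10.9, 14.3, 4.61 and 17.0 in ZFR and 15.5, 13.8, 23.2 and 0 in ZLR, where a single library without a read brought the log2 fold change to 0.41 with an interval from -1.82 to 2.64. For Dnmt1, Dnmt3a and Tet2 the direction changed with the weighting of the shallow libraries, so no direction is given. Dnmt3b, at 0 to 10.8 normalized counts, and Tet3, at 0 to 10.4, were not tested. Tet1 had 1 read in each of 2 ZFR libraries and 0 in the other 6 libraries of the table.

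Between BT2 and vehicle, 2 of the 7 could be tested and 0 passed, as did 0% of the 8405 genes tested (3.95% at an unadjusted p under 0.05, and 0 of the 2). Dnmt1 had 33.3, 23.4, 29.3 and 38.2 normalized counts with BT2 and 27.8, 24.3, 20.1 and 9.82 with vehicle. All 4 treated livers were above the control median but the groups overlapped, and the lowest control was a library with 1 read of Dnmt1. The log2 fold change was 0.64 with an interval from -0.13 to 1.42 (adjusted p = 0.898, limma), and the exact permutation test gave p = 0.0857 where 0.0286 was the smallest possible. Without that library it was 0.34. Tdg had 53.9, 65.5, 43.2 and 26.9 with BT2 and 47.9, 44.1, 54.0 and 30.7 with vehicle, a log2 fold change of 0.06 with an interval from -0.60 to 0.71. Tet2, untested, was at 5.34 to 10.9 with BT2 and 0 to 6.72 with vehicle, which stands for 2 to 6 reads and 0 to 30 reads. Tet1 had 0 reads in all 8 livers, which at a limit of 3 reads and the depth of these libraries allows 0.672 to 31.0 normalized counts.

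**Figure D5:**
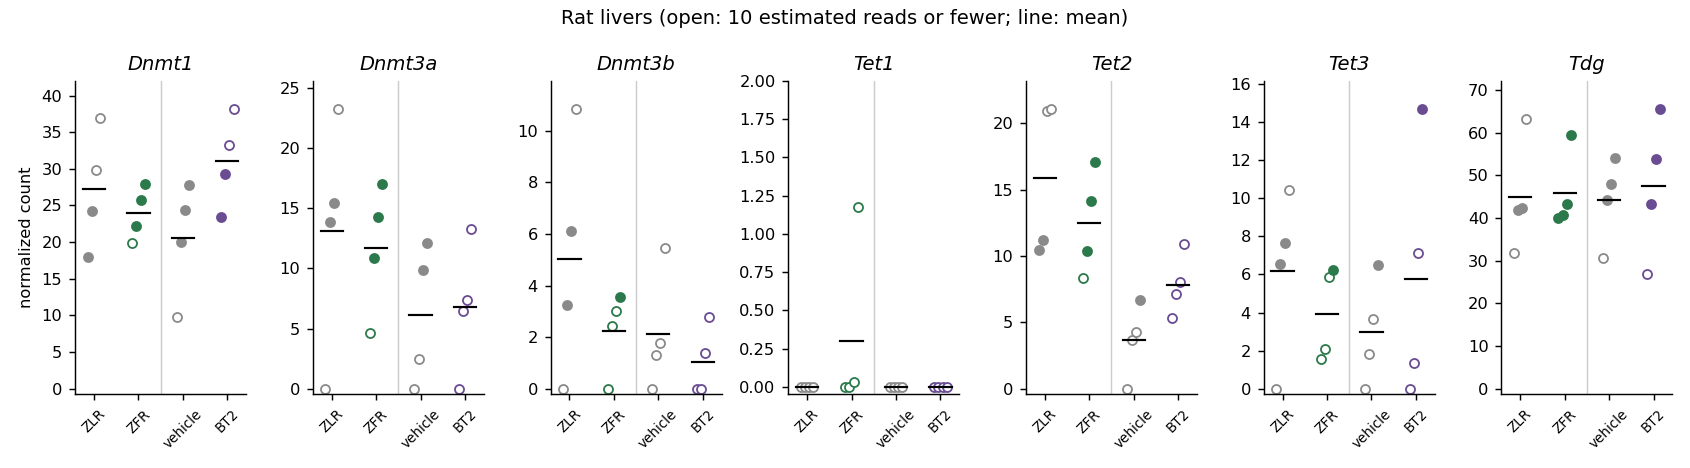
Normalized counts (y axis) of each gene in each rat liver, with ZLR and ZFR from one table and vehicle-treated and BT2-treated ZFR from another. Open circles rest on 10 estimated reads or fewer and lines are means. The groups overlap for all 7 genes, with Tet1 at or near 0 throughout.

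The lists around the 7 enzymes gave few calls in rats. Of the 14 repair genes 11 were tested between ZFR and ZLR, and 1, Gadd45g, a stress-induced gene, was lower in ZFR at -2.41 on the log2 scale (adjusted p = 0.00761, limma). In the methyl donor cycle Cbs, which commits homocysteine to cysteine synthesis, was lower in ZFR at -0.69 (adjusted p = 0.00371, limma). Sardh, which breaks down sarcosine, was higher at 0.49 (adjusted p = 0.0343, limma). These calls were 1 of 11 repair genes and 2 of 21 methyl donor genes, beside 4.25% of all genes tested. An unadjusted p under 0.05 was reached by 2 of 11 and 6 of 21, beside 16.6% of all genes tested. Partners, readers and TET-related genes gave 0 of 5, 0 of 7 and 0 of 6, with 0, 1 and 2 at an unadjusted p under 0.05 and the largest differences at Hells (-1.90, adjusted p = 0.333), Zbtb4 (1.11, adjusted p = 0.593) and Idh3a (1.16, adjusted p = 0.0670, all limma). Of the proliferation genes 4 could be tested and 0 passed (0 also at an unadjusted p under 0.05), with the largest difference at Mcm2 (0.71, adjusted p = 0.462, limma). Matrix genes again served for scale, with 5 of 10 higher in ZFR, beside 1.8% of all genes tested. Their median was 1.14, beside a median of 0.07 over all genes tested. With BT2, 0 genes of these lists passed, and the largest differences within lists included those of Dmap1 (0.41), Zbtb4 (1.26), Lig3 (1.00), Mat2a (1.04), Mcm7 (1.30) and Col4a2 (1.56), each with an adjusted p of 0.898 (limma).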

How the data were processed

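Livers of 21 mice and 16 rats were sequenced after poly(A) selection. According to the labels and the study's methods, the authors aligned reads with STAR to mm10 or rn6, estimated counts with Salmon and normalized each of 4 tables with DESeq2. The deposited signal values are such normalized counts, and only 68.5 to 74.6% of the mouse values up to 30 reads lay within 0.02 of a whole read, so a count model was not used. Genes with a mean of at least 10 were tested in each table on log2(value + 1) with limma 3.58.1 (R 4.3.3, trended variance), with Benjamini-Hochberg adjustment over all genes tested. In mice, calls needed p under 0.05, adjusted p under 0.2, mean above 50 and fold change above 1.2, and in rats an adjusted p under 0.05. Fold changes on this scale understate those of low genes. Single genes also had a two-sided exact permutation test. Read depth was estimated from the step between low values, and limits at 0 stand for 3 reads and counting error only. Seed matches were searched in GENCODE M21 3′ UTRs on GRCm38. Unnamed or repeated gene names were left out. Values of 2 listed genes, 1 of them past the criteria in WT/Floxed mice, are not reported here. Named genes were the 7, the 3 most correlated genes and, apart from values not reported, the genes past the criteria in mice of each list other than cell type markers. Where none passed, the gene with the largest difference was named. Of the cell type markers, only the macrophage genes past the criteria were named. The 7 genes and the lists were chosen with earlier results of these data known. The script was tested on simulated data. Alternatives covered pseudocount, filter, scaling, weights, covariates, replicate block and omitted libraries.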

Additional observations from a re-analysis of the deposited data

Results flagged for a closer look

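Among 53 groups of 4 to 8 livers, 4 held a liver whose gap to the nearest other exceeded Dixon's 95% critical value, and chance gives about 1 in 20. Tet1 in WT/Floxed saline replicate 1 had 22.2 normalized counts, the next highest liver of that group 8.36. Tet3 in L-Sirt1 KO saline replicate 3 had 895 normalized counts, still under the lowest LNA29 liver. In rats, Tet1 in ZFR replicate 2 had 1.18 normalized counts, which is 1 read, and Tdg in the same library had 59.5.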

How the results depend on the processing

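In WT/Floxed mice, 688 genes passed. Without the minimum mean 396 did, with quality weights 1308, with a replicate block 56, in WT mice only 88, at an adjusted p under 0.05 216, and between 381 and 1006 without single livers, with 406, 443 and 381 without LNA29 replicates 6, 7 and 8 and 451 without saline replicate 1. With the replicate block Dnmt3b (1.196, adjusted p = 0.367, limma) and Tet3 (0.66, adjusted p = 0.440) no longer passed, as in WT mice only (1.44 and 0.60), and Tet2 passed with quality weights (0.55). Of the 5 same-numbered pairs in this table, 1 correlated above 0.1, too few pairs to tell whether the replicate numbers mark a pairing. The block changed no other call among the 7 genes. Within flow cells, Tet1 was at -0.067 and 1.92 and Tet3 at 0.40 and 0.91. Tdg passed in all tested alternatives. In the mice labelled L-Sirt1 KO, 297 genes passed, against 160 without the minimum mean, 804 with quality weights, 103 with flow cell as a covariate, 145 with the replicate block, 39 at an adjusted p under 0.05, and 77 to 426 without single livers, lowest without LNA29 replicates 2, 3 or 4 (85, 87 and 77) and saline replicates 2 or 4 (165 and 133). Quality weights let Dnmt1 (0.30) and Tet2 (0.43) pass and turned Tet1 to -0.15, and without single livers Tet1 ranged from -0.031 (without saline replicate 1) to 0.58. Dnmt3a, Dnmt3b, Tet3 and Tdg passed in every tested alternative there. Between ZFR and ZLR, 367 genes passed, against 241 without the minimum mean, 1169 with quality weights, 221 with the replicate block, 579 with precision weights, 73 without the libraries under 5 M reads, 707 under the mouse criteria, and 225 to 379 without single livers, with 225 to 235 without any 1 ZFR library. Quality weights gave Dnmt1 0.18, Dnmt3a -0.25 and Tet2 0.014, precision weights 0.17, -0.27 and 0.040, omitting shallow libraries gave Dnmt1 0.40 and Dnmt3a -0.40, and a pseudocount of 10 gave Dnmt3a -0.0032. Without single livers, Dnmt1 ranged from -0.32 to 0.011, Dnmt3a from -0.64 to 0.90, and Tdg from -0.090 to 0.23. With BT2, 0 genes passed, 1 with a pseudocount of 10, 1 with quality weights and 1 under the mouse criteria, and 0 to 2 without single livers, where Tdg ranged from -0.12 to 0.30. Omitting shallow libraries left 1 library and could not be fitted. The difference between genotypes turned to 0.040 (flow cell covariate) and 0.15 (floxed only) for Tet2, and to -0.011 (floxed only) for Tet3. With floxed mice only it was also 0.27 in place of 0.68 for Dnmt3a, 1.19 in place of 0.85 for Dnmt3b, -0.23 in place of -0.08 for Tdg and -1.17 in place of -0.57 for Tet1. Where a count or direction moved, the cause was not tested. An 8-base match was present in 5 of 7 genes.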
